A study of Rattus norvegicus with 8 samples.

Results

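Midkine (Mdk) and pleiotrophin (Ptn) form a small family of secreted, heparin-binding growth factors. They act through cell-surface proteoglycans and kinases, of which Ptprz1, the syndecans Sdc1, Sdc2, Sdc3 and Sdc4, and Alk are described here. These 8 genes were taken by name from 26405 Ensembl rat genes, 7 by the symbol in the deposited tables and Sdc3 by its Entrez identifier, which carries no symbol there. Mdk was chosen by its fold change in axons, so its axonal values are a description and no test is given for them.

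The neurons were from embryonic rat hippocampus and had spent 10 to 14 days in microfluidic chambers, which keep axons and cell bodies in separate compartments. Only the axons received soluble oligomeric Abeta(1-42), the amyloid peptide, or its vehicle, and this lasted 24 h. The 4 groups, with 2 samples each of 8 in all, were axons with Abeta, axons with vehicle, soma (with the neurites around it) with Abeta and soma with vehicle. The cell bodies of both soma groups were thus never treated themselves. The labels do not state whether the 2 samples of a group came from separate cultures, so the p-values may measure technical spread only.

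In each compartment the authors compared the treatments once, and their deposited tables leave the numerator unnamed. A positive side and a negative side are therefore named from the sign of the deposited log2 fold change, and neither is called Abeta or vehicle. Whole reads per library were recovered from the deposited means, and each library is known only by its compartment, its side and a number. Axonal libraries held 231854 to 425420 reads in recovered genes and somatic ones 263117 to 3661530, with a deep and a shallow somatic library on each side. In bulk RNA, fewer cells of a type and less RNA per cell cannot be told apart.

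As background, midkine and pleiotrophin bind the sulfated sugar chains that proteoglycans carry. Ptprz1 is a receptor-type tyrosine phosphatase with chondroitin sulfate chains, made mainly by glial and progenitor cells, and pleiotrophin binding lowers its phosphatase activity. Syndecans are transmembrane carriers of heparan sulfate, and Sdc3 is known as a pleiotrophin receptor in neurite outgrowth. Midkine has been found in the amyloid deposits of Alzheimer disease.

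Among the growth factors, Mdk had almost all of its axonal reads on the positive side. The axonal libraries held 31 and 60 Mdk reads on the positive side, against 0 and 1 on the negative side. Divided by size factors these were 23.4 and 47.0 normalized counts on the positive side, against 0 and 1.35 on the negative one, so the sides stood far apart. The ratio of positive to negative reads, corrected for size factors, was 59.2. Its exact 95% interval of 10.4 to 2364 covers counting error only and, like the ratio, describes values by which Mdk was chosen. In the authors' deposited table Mdk (ENSRNOG00000017560) stood at a log2 fold change of 3.88 (SE 0.93), the 3rd highest of 23879 genes with axonal reads. It has no adjusted p there, because its mean of 17.9 normalized counts lies below 44.8, the lowest mean to which the authors' table gives one.

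The next counts describe the same values of Mdk beside genes of similar abundance, and since Mdk was chosen by them they support nothing. Of 4074 genes with an axonal mean within 1.5 times that of Mdk, 3 had at most 1 read on the negative side, namely Mdk, the serine protease gene Prss23 and an identifier without a symbol. None of the 4074 had at most 1 read on the positive side (0 genes). The median gene of this group had 46 reads on the positive side and 28 on the negative side. In RefSeq, Mdk overlaps the muscarinic receptor gene Chrm4, and no source used here says whether counting used strand. Chrm4 lay the other way in axons, with 10 and 4 reads on the positive side, 30 and 7 on the negative side, and a log2 fold change of -1.49 (SE 0.90) in the authors' deposited table.

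Ptn was the only one of the other 7 genes to pass the authors' test in axons. It had 110 and 144 normalized counts on the positive side, against 32.6 and 51.3 on the negative side. The lowest positive-side value was above the highest negative-side one. In the authors' deposited table Ptn (ENSRNOG00000011946) rose on the positive side by 1.50 on the log2 scale (SE 0.53, adjusted p = 0.0226), a fold of 2.83. Of the 1321 genes with an adjusted p, 23.0% were called in either direction and 8.78% on the positive side. The call did not hold with adjustment over the 8032 genes whose mean reached 10 (adjusted p = 0.116) or over all 23879 genes with reads (0.314). With both adjustments the fold change stays as it was. The call was also lost after recentring on genes abundant in soma (somatic mean of 100 or more), where the log2 fold change was 1.06 (adjusted p = 0.161). The summed normalized counts of 17 astrocyte markers were 3901 and 4274 in positive-side axonal libraries against 816 and 1432 in negative-side ones. Gfap and Vim made up 2513 and 2794 of these on the positive side, against 382 and 567 on the negative one, and 5 of the 17 markers had a log2 fold change below 0. Their part in these values was not tested.

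**Figure D1:**
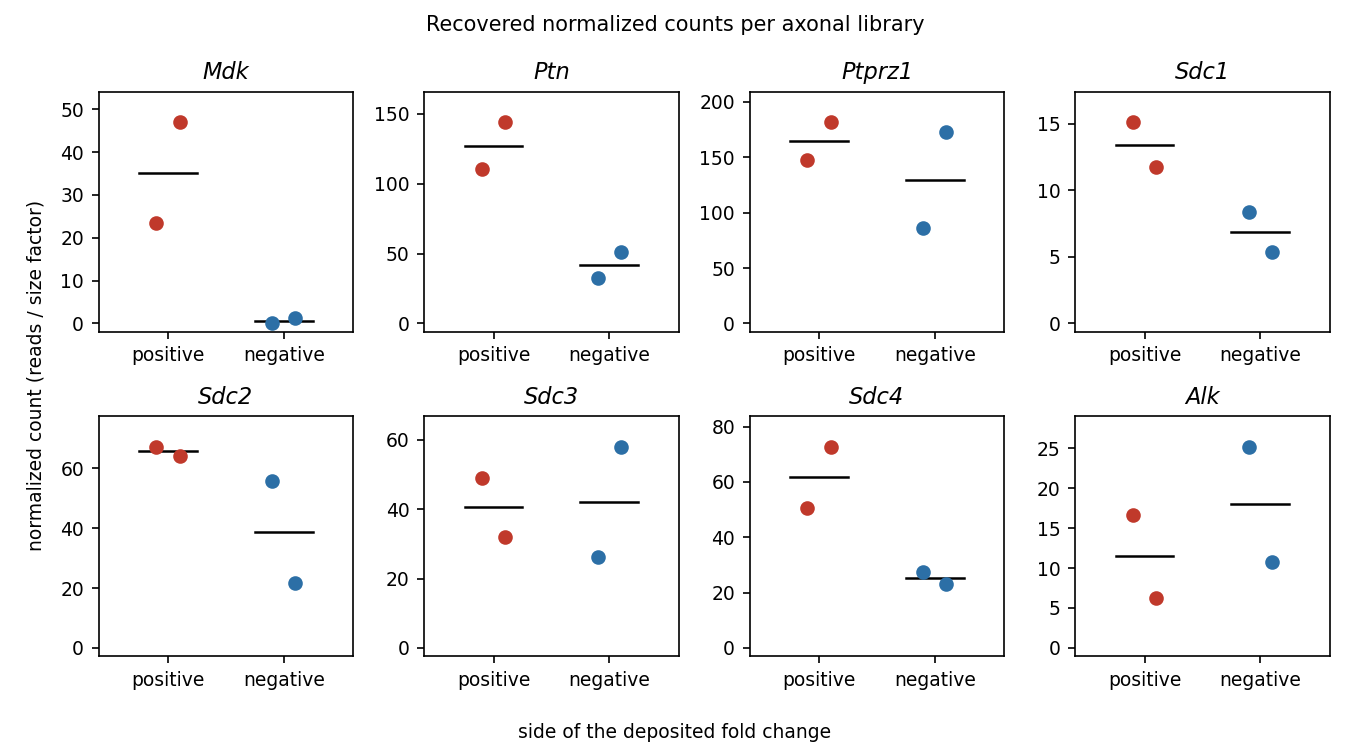
Recovered normalized counts (reads divided by the size factor, linear axis) of the 8 genes in the 4 axonal libraries, positive-side libraries in red and negative-side libraries in blue, with a bar at each side's mean. Mdk stood at 23.4 and 47.0 against 0 and 1.35, while Ptprz1, Sdc3 and Alk overlapped between sides.

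The receptor phosphatase Ptprz1 did not pass the authors' test in axons. It had 147 and 182 normalized counts on the positive side, against 86.1 and 173 on the negative one, and the sides overlapped. Its log2 fold change was 0.33 (SE 0.49, adjusted p = 0.681) per the authors' deposited table, with a 95% interval of -0.62 to 1.28. The negative-side libraries differed from each other by 1.00 on the log2 scale, more than the sides did.

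The 4 syndecans spread from Sdc4, farthest toward the positive side, to Sdc3, near 0. Sdc4, which is known for its place in focal adhesions, had 50.6 and 72.8 normalized counts on the positive side, against 27.3 and 23.0 on the negative one, with no overlap. Its log2 fold change of 1.17 (SE 0.62) in the authors' deposited table carries no adjusted p, its mean of 43.4 being just under the lowest mean with one. Sdc1, best known from epithelia, had 15.1 and 11.7 normalized counts on the positive side, against 8.40 and 5.40 on the negative one, without overlap, from 47 reads in all. Sdc1 stood at 0.72 (SE 0.91), without an adjusted p, in the authors' deposited table.

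Sdc2, a syndecan of dendritic spines, had 67.3 and 64.2 normalized counts on the positive side, against 55.7 and 21.6 on the negative one. The sides did not overlap, but most of the gap came from the second negative-side library: leaving it out gave a log2 ratio of 0.24, and leaving out the first negative-side library gave 1.58. The authors' deposited table puts Sdc2 at 0.69 on the log2 scale (SE 0.61, adjusted p = 0.471). Sdc3, the neuronal syndecan, had 49.1 and 32.1 normalized counts on the positive side, against 26.3 and 58.1 on the negative one. These overlapped, and the log2 fold change of Sdc3 was -0.04 (SE 0.65, no adjusted p) per the authors' deposited table.

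The stretches directly upstream of the RefSeq starts of Sdc4 and Sdc3 are shown because these were the ends of the syndecan order in axons. RefSeq's GRCr8 promoter table held 5 of the 8 genes. The Sdc4 stretch is chr3:173592924-173593173 on the minus strand and the Sdc3 stretch chr5:148249542-148249791 on the plus strand. Capitals mark the GC box GGGCGG on either strand, with overlapping copies counted separately.
Sdc4: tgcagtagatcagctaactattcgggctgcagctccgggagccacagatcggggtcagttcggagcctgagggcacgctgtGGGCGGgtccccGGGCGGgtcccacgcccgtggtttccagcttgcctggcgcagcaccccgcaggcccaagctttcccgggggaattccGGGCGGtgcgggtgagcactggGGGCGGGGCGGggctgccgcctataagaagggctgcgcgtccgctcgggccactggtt
Sdc3: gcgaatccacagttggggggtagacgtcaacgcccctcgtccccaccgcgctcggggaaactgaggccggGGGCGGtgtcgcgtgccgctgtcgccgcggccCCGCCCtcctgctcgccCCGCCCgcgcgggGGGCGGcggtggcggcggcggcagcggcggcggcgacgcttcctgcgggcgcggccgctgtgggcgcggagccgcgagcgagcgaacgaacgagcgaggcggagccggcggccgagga
The GC box occurred 5 times in the Sdc4 stretch and 4 times in that of Sdc3. It also occurred in those of Alk (5), Sdc1 (3) and Ptn (1), so it does not set the syndecan ends apart. At least 1 copy was present in 30.5% of all 33469 stretches of 250 bases upstream of a start. The Sdc4 and Sdc3 stretches were 70.0% and 80.0% G or C, where the median of all stretches was 51.2%. Of the 5 genes, Ptn alone held the AP-1 motif TGANTCA on either strand, which 6.34% of all stretches hold. It is shown in capitals in the 30 bases at chr4:66342394-66342423, minus strand.
Ptn: aaagaaagcacTGAGTCAtccatccagaag
A match is only a description of these letters.

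Alk, a receptor tyrosine kinase first proposed as a receptor of both growth factors, was among the less abundant transcripts in axons, with 62 reads in all. It had 16.6 and 6.26 normalized counts on the positive side, against 25.2 and 10.8 on the negative one. The sides overlapped, and libraries of a side differed more than the sides did. The log2 fold change of Alk was -0.53 (SE 0.86, no adjusted p) per the authors' deposited table. Several RefSeq genes overlap the Alk locus, so its few reads are uncertain.

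Of the 7 genes other than Mdk, 5 had an axonal log2 fold change above 0, and their median was 0.69. Over all genes with axonal reads 43.7% lay above 0 with a median of -0.13. Genes abundant in soma had a median of 0.44, and 76.6% of them lay above 0. All 8 genes had an axonal mean above 10. In 5 of them (Mdk, Ptn, Sdc1, Sdc2 and Sdc4) both positive-side libraries were above both negative-side ones. The same held for 30.6% of all recovered genes with an axonal mean of 10 or more, and for 48.1% of those that were also abundant in soma. Without Mdk the count was 4 of 7, close to that second share. However, Sdc1, Sdc4 and Alk were not themselves abundant in soma, with somatic means of 15.2, 83.0 and 6.73.

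**Figure D2:**
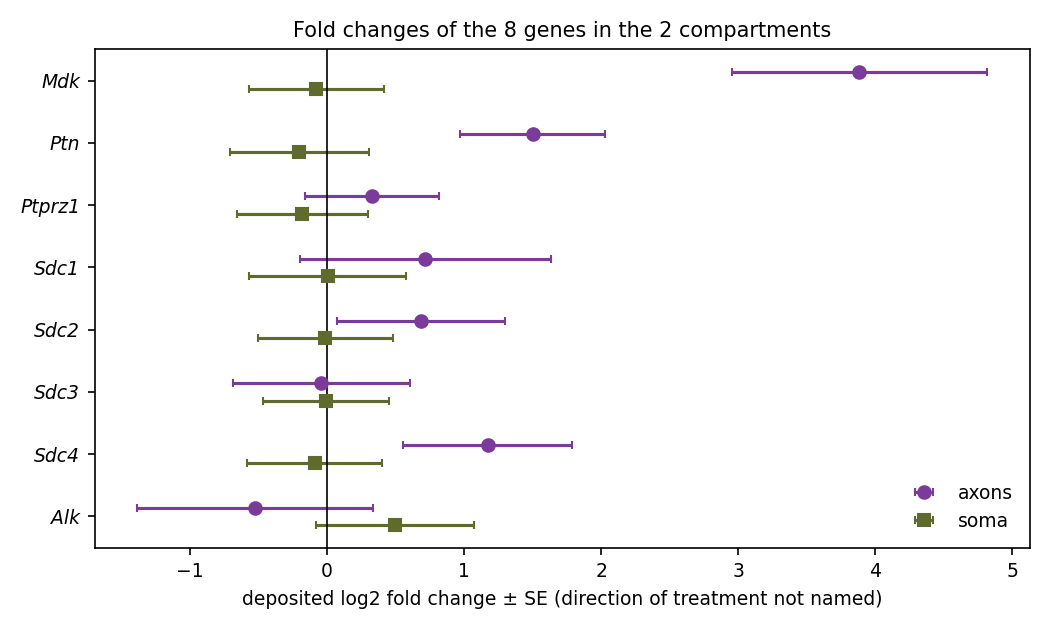
Deposited log2 fold changes of the 8 genes (points, with bars of 1 SE) in axons (circles) and soma (squares), with the direction of treatment not named. The axonal values run from -0.53 for Alk to 3.88 for Mdk, while the somatic values lie between -0.20 and 0.50.

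In the cell bodies none of the 8 genes passed the authors' test (DESeq2), with a smallest unadjusted p of 0.387 and 0 unadjusted p-values under 0.05. Among all 18995 genes with somatic reads the authors' test called 0%, and 2 genes had an unadjusted p under 0.05. That is far fewer than chance alone gives at this threshold, so the somatic SE were large for the spread of the fold changes. The test could thus call hardly any gene, and the lack of calls says little about the 8 genes. Mdk, so uneven in axons, was nearly level in soma. It had 227 and 19 reads on the positive side, against 287 and 24 on the negative one, which are 76.4 and 64.0 against 76.7 and 75.1 normalized counts. The somatic log2 fold change of Mdk was -0.08 (SE 0.49, 95% interval -1.04 to 0.88) in the authors' deposited table.

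Ptn in soma varied more between libraries than between sides. It had 993 and 583 normalized counts on the positive side, against 1405 and 491 on the negative one, and its deep library was the higher one on each side. Within a depth, Ptn lay toward the negative side in the deep pair (log2 ratio -0.50) and toward the positive side in the shallow pair (0.25). Its somatic log2 fold change was -0.20 (SE 0.51), and that of Ptprz1 was -0.18 (SE 0.48), in the authors' deposited table.

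The somatic log2 fold changes of the syndecans were also near 0. They lay between -0.09 for Sdc4 (SE 0.49) and 0.01 for Sdc1 (SE 0.57) in the authors' deposited table. Their 95% intervals were wide, at -1.05 to 0.87 for Sdc4 and -1.12 to 1.13 for Sdc1. Sdc3 had 252 and 286 normalized counts on the positive side, against 220 and 325 on the negative one. Alk had the highest somatic value, 0.50 (SE 0.58) in the authors' deposited table, from 15 and 4 reads on the positive side, against 8 and 2 on the negative one. The sides overlapped for all 7 genes whose somatic reads could be recovered. Among all recovered genes with a somatic mean of 10 or more, the positive side was higher without overlap in 7.42% and the negative side in 8.26%.

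**Figure D3:**
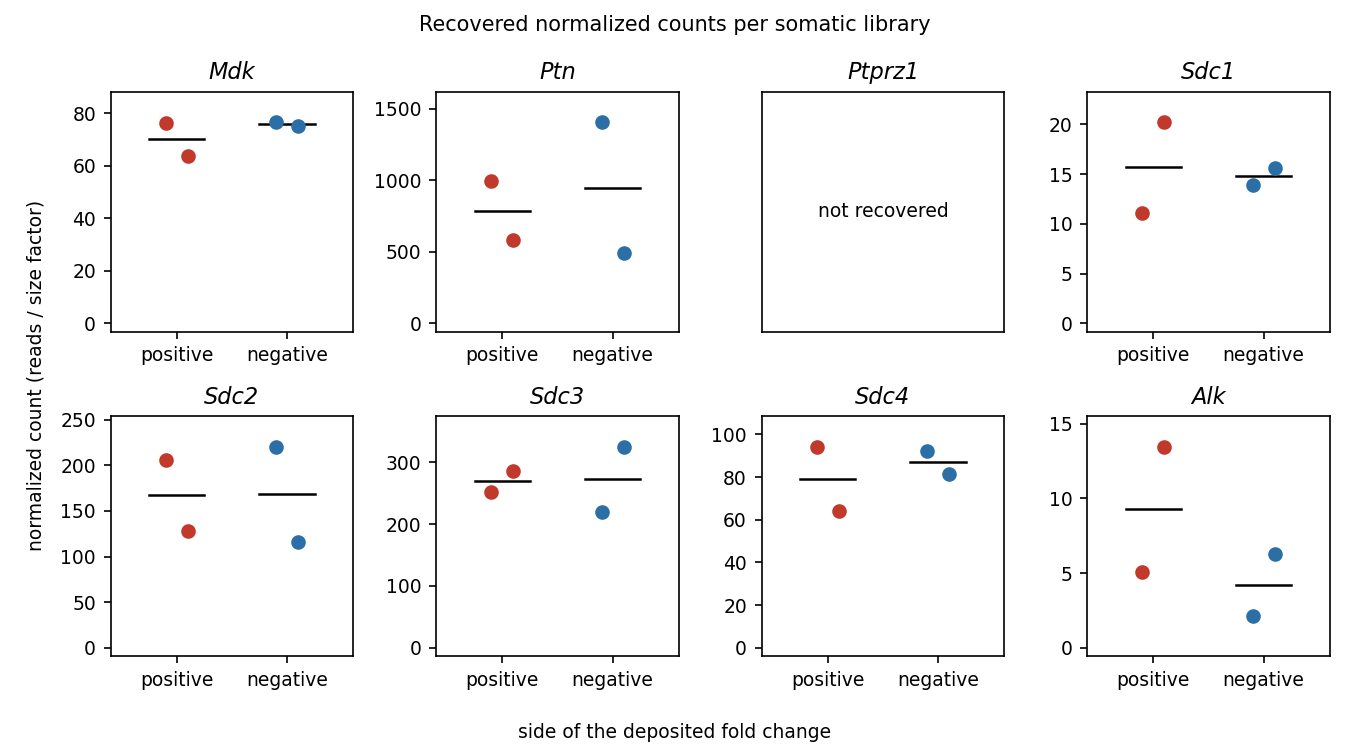
Recovered normalized counts (linear axis) in the 4 somatic libraries, positive side in red and negative side in blue, with a bar at each side's mean. The sides overlap for each of the 7 genes shown, and Ptprz1, with a mean of 1221, had no single solution.

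The test of the axonal minus the somatic log2 fold change called 0 of the 7 genes other than Mdk, against 0.0326% of the 18406 genes tested. This test takes in the large somatic SE, so its lack of calls also says little. For Ptn the difference was 1.70 (SE 0.73, 95% interval 0.27 to 3.13, unadjusted p = 0.0198), which did not pass adjustment over all genes (adjusted p = 1.00, normal test with Benjamini-Hochberg adjustment). For Sdc4 it was 1.26 (95% interval -0.29 to 2.81) and for Ptprz1 0.51 (95% interval -0.83 to 1.85). For Mdk it was 3.96 (SE 1.05), given as a description. Among recovered genes with a mean of 10 or more and a log2 ratio of sides of at least 0.5 in size, the deposited log2 fold change was a median 0.855 of the recovered ratio in axons and 0.579 in soma, and the differences take the values as deposited.

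The level of each transcript was set between compartments as CPM, the reads scaled to 1000000 reads in the genes recovered in both tables. The tables were normalized separately, so no test was run. Mdk had 79.6 and 156 CPM in the positive-side axonal libraries, 0 and 4.65 on the negative side, and 74.2 to 87.2 in the 4 somatic libraries. The 0 reads allow up to 10.6 CPM, taking 3 reads as the limit. In CPM one positive-side axonal library was thus within the somatic range and the other above it, while both negative-side ones were far below it. In normalized counts both positive-side axonal libraries, at 23.4 and 47.0, were below the somatic range of 64.0 to 76.7. The ratio of axonal to somatic mean normalized count was 0.246 for Mdk, where the median over genes was 0.300.

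Ptn was lower in axons, at 110 to 478 CPM, than in soma, at 564 to 1496. Sdc3 was likewise lower in axons, at 88.4 to 200 CPM, than in soma, at 234 to 374, and neither gene's libraries overlapped between compartments. Sdc2 averaged 176 CPM in axons and 188 in soma, and its libraries overlapped. Sdc4 averaged 146 CPM in axons and 93.4 in soma, and Sdc1 34.3 CPM in axons and 17.2 in soma, both with overlapping libraries. Over 6999 genes with a mean of 10 or more in both tables, the median ratio of axonal to somatic CPM was 0.887. In deposited mean normalized counts Sdc4 stood at 43.4 in axons and 83.0 in soma, and Sdc1 at 10.2 in axons and 15.2 in soma. These are ratios of 0.523 and 0.668, where the median ratio over 7257 genes was 0.300. Sdc4 and Sdc1 thus lay above the median ratio on either scale when all axonal libraries were averaged. By side, the CPM ratio of Sdc4 was 2.21 for positive-side axonal libraries and 0.915 for negative-side ones, the latter near the median of 0.887. That of Sdc1 was 2.62 and 1.36. Ptprz1, which has no somatic CPM here, had a mean normalized count of 147 in axons and 1221 in soma, a ratio of 0.120 to be read beside 0.300.

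Alk was higher in axons on both scales, with 20.8 to 84.8 CPM in axons against 2.28 to 15.6 in soma, without overlap. The ratio was 6.46 in CPM and 2.19 in mean normalized counts. Its highest axonal library, on the negative side, was the lowest axonal library for both Mdk and Ptn. The axonal libraries also held reads in 5473 genes without any somatic read. These genes took 2.80% and 1.25% of recovered reads on the positive side, against 5.59% and 4.62% on the negative one. Their part in the Alk values was not tested.

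**Figure D4:**
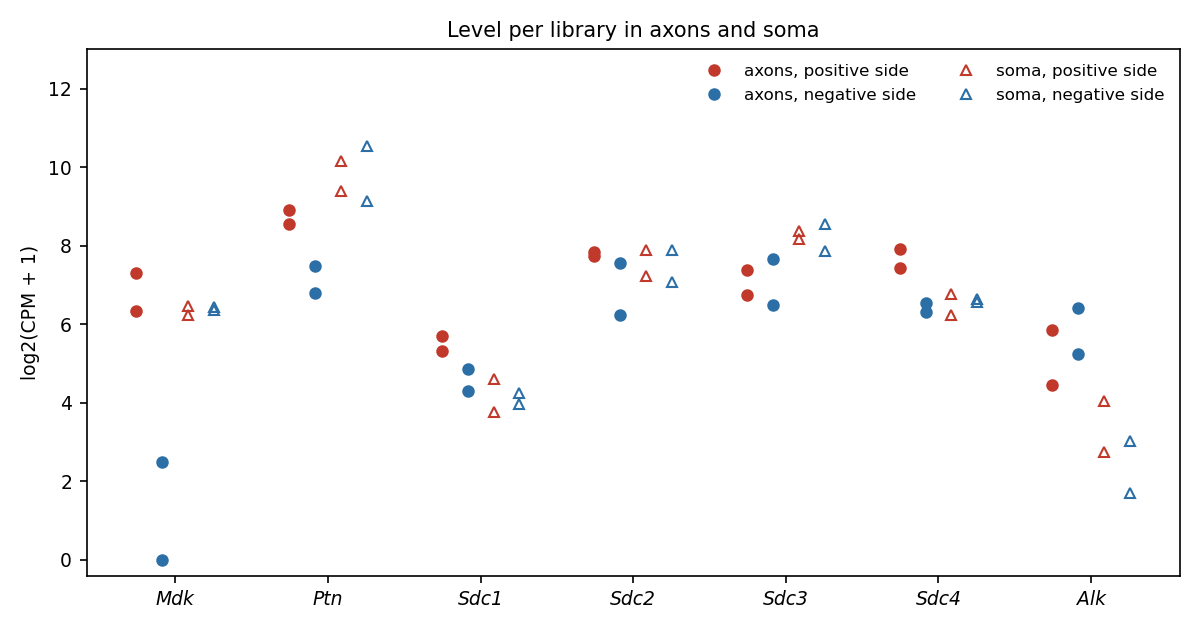
Level of 7 genes per library as log2(CPM + 1), with filled circles for axons, open triangles for soma, red for the positive and blue for the negative side. The negative-side axonal libraries lie far below the others for Mdk, at 0 and 4.65 CPM, while the somatic Mdk libraries lie within 74.2 to 87.2.

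Genes that share the pathway were described through 7 lists. Among 15 identifiers (14 genes) of other reported binding partners, 3 of the 8 with an adjusted p were called on the positive side, where 8.78% of all genes were called, and 0 on the negative. These were both identifiers of the chondroitin sulfate proteoglycan Ncan, at log2 fold changes of 2.06 (SE 0.37) and 2.02 (SE 0.38), which may share reads, and the endocytic midkine receptor Lrp1, at 1.10 (SE 0.40), in the authors' deposited table. Lrp1 had 362 and 382 normalized counts on the positive side, against 164 and 173 on the negative one. With Ncan counted once, 2 of the 7 genes with an adjusted p were called. The median of this list was 0.21 over identifiers and 0.17 over genes, between those of all genes and of genes abundant in soma.

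Of 15 Ptprz1 substrates and adhesion partners, 2 of the 11 with an adjusted p were called, both on the positive side, beside 23.0% of all genes called in either direction. Cdh2 (N-cadherin) rose by 1.58 (SE 0.44, adjusted p = 0.00700) and Ctnnb1 (beta-catenin, a substrate of Ptprz1) by 1.55 (SE 0.50, adjusted p = 0.0138) on the log2 scale, per the authors' deposited table. Ctnnb1 had 188 and 311 normalized counts on the positive side, against 51.5 and 108 on the negative one. The list's median was 0.64, beside 0.44 for genes abundant in soma. Both genes had somatic log2 fold changes near 0, at -0.19 for Cdh2 (SE 0.44) and 0.00 for Ctnnb1 (SE 0.44), in the authors' deposited table.

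Of 17 syndecan partners and shedding enzymes, with the 2 identifiers of Cttn counted once because their values are identical, 15 had a log2 fold change above 0 and the median was 0.84. Of genes abundant in soma 76.6% lay above 0, and of all genes 43.7%. Only Timp3, an inhibitor of the metalloproteinases that shed syndecans, was called among the 6 with an adjusted p, at 1.89 (SE 0.67, adjusted p = 0.0244) per the authors' deposited table. Its positive-side libraries differed widely, with 37.0 and 117 normalized counts against 18.9 and 16.2 on the negative side. The adjusted p of Timp3 was above that of Ptn, so its call too is lost with adjustment over more genes. Of 18 Alk signalling genes, 2 of the 3 with an adjusted p were called on the positive side, beside 8.78% of all genes. The median of this list, 0.38, was below the 0.44 of genes abundant in soma. Called were the kinase subunit Pik3r1 at 1.69 (SE 0.64, adjusted p = 0.0360) and the transcription factor Stat3 at 1.68 (SE 0.56, adjusted p = 0.0154) per the authors' deposited table. With an adjusted p above that of Ptn, Pik3r1 likewise loses its call with adjustment over more genes. Such adjustments are not given for the other called genes of the lists.

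The carriers and makers of the sugar chains had 0 called genes, but only 3 of their 45 identifiers had an adjusted p. Glypicans and LAR-family phosphatases (8 genes) had a median log2 fold change of 0.36, with Ptprf at 0.98 (SE 0.51, adjusted p = 0.177) and the glypican Gpc1 at 0.70 (SE 0.54, adjusted p = 0.398) per the authors' deposited table. Heparan sulfate synthesis (23 genes) had a median of 0.16, with the sulfatase Sulf2 at 1.26 (SE 0.58, adjusted p = 0.110) and the sulfotransferase Hs6st1 at 0.94 (SE 0.67) there. Chondroitin sulfate synthesis (14 genes) had a median of -0.17. Its most abundant axonal members were the polymerizing factors Chpf at 2.25 (SE 0.71) and Chpf2 at -0.29 (SE 0.73) in the authors' deposited table, both without an adjusted p. Chpf had 40.1 and 75.9 normalized counts on the positive side, against 7.35 and 12.2 on the negative one. In soma 0 genes of the 7 lists were called, as was true of every gene there.

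**Figure D5:**
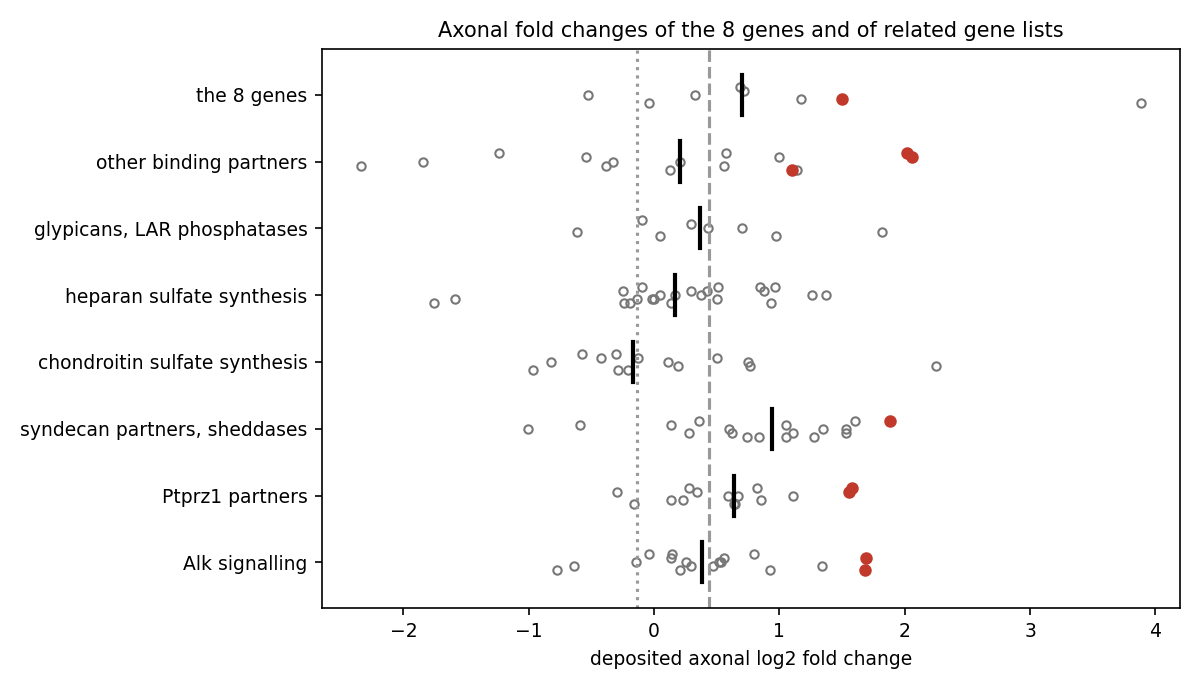
Deposited axonal log2 fold changes of the 8 genes and of 7 related lists, 1 circle per identifier, filled red where the authors' adjusted p was under 0.05, with a black bar at each median. The dotted line marks the median of all genes (-0.13) and the dashed line that of genes abundant in soma (0.44); the bar of the 8 genes (0.70) includes Mdk, and without Mdk the median is 0.69.

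The genes whose profile over the 8 libraries was most like that of Mdk were sought among 679 genes with a symbol and a mean of 50 or more in both tables. The measure was the Euclidean distance of log2(normalized count + 1), centred within each table. The nearest was Gas6, a ligand of receptor tyrosine kinases, at a distance of 1.63 where the median gene lay at 4.16. Gas6 had 364 and 531 normalized counts on the positive side, against 47.3 and 56.7 on the negative one in axons. Next came the lipid phosphatase gene Ppap2b (1.64), the tetraspanin gene Cd151 (1.72), LOC100911730 (1.88) and the prion protein gene Prnp (1.98). LOC100911730 carries the Entrez identifier of Cd151, and the reads of both may be shared. Cd151 had 62.0 and 118 normalized counts on the positive side, against 5.25 and 20.3 on the negative one. Since these genes were chosen by likeness to the Mdk profile, their division between sides follows from the choice and supports nothing.

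Of the 17 astrocyte markers, 12 had an axonal log2 fold change above 0, and 6 of the 10 with an adjusted p were called positive, beside 8.78% of all genes. None of the 17 was at 0 reads. Without Gfap and Vim the other 15 summed to 1388 and 1481 normalized counts on the positive side, against 434 and 864 on the negative one. Gfap, the astrocyte filament, had 1228 and 1530 normalized counts on the positive side against 158 and 375 on the negative side, recovered in a range of means where the solution is less certain. Vim stood at a log2 fold change of 2.53 (SE 0.37) and Aldoc at 1.99 (SE 0.54) in the authors' deposited table. The 12 fibroblast markers were divided, with 5 above 0 and a median log2 fold change of -0.06. They summed to 665 and 1038 normalized counts on the positive side, against 268 and 266 on the negative one, with 4 of the 5 that had an adjusted p called positive, among them Col1a1 at 2.28 (SE 0.50) in the authors' deposited table.

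Neuronal markers did not share this division. The 16 neuronal markers summed to 943 and 1036 normalized counts on the positive side, against 638 and 1337 on the negative one, and 0 of the 8 with an adjusted p were called. Tubb3 (neuronal tubulin) stood at -0.64 (SE 0.55, adjusted p = 0.452) per the authors' deposited table. The 12 oligodendrocyte lineage markers summed to 101 and 97.8 normalized counts on the positive side, against 99.8 and 47.3 on the negative one. Of these, 8 lay above 0 and the median log2 fold change was 0.20, with Pdgfra at -0.15 (SE 0.88). The 11 microglial markers summed to 81.6 and 34.4 normalized counts on the positive side, against 120 and 185 on the negative one. Only 3 of the 11 lay above 0, and their median log2 fold change was -1.07 over the whole list. Aif1 was 1 of the 3, at 1.05 (SE 0.96) on a mean of 1.34 in the authors' deposited table. The 7 endothelial and mural markers summed to 36.3 and 15.7 on the positive side, against 75.6 and 59.4 on the negative one. In soma the 12 astrocyte markers that could be recovered summed to 3481 and 4704 normalized counts on the positive side, against 3462 and 4614 on the negative one. The part of these cell types in the Mdk, Ptn and Sdc4 values was not tested.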

How the data were processed

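Rat neuronal RNA was sequenced as 8 samples in 4 groups, named from the sample titles. The submitters' processing notes name DESeq2, TopHat2, Trim Galore and SAMtools without versions. Genome build, annotation and counting program: not given in the sources used here. Per the file headers, the authors deposited for each compartment a mean normalized count over 4 libraries (signal: counts over size factors), log2 fold changes and their SE, a Wald score, a p-value and its Benjamini-Hochberg adjusted value. The deposited score equalled log2 fold change over SE, and the deposited p-value its two-sided normal p.

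No column per sample exists, so the authors' adjusted p under 0.05 was used as deposited. The difference between compartments was tested with SE combined in quadrature. Whole reads were recovered from means of 15 significant digits, as sums of whole multiples of 4 library units read from genes with 1 read, within rounding. For means up to 100, 100% of axonal and 99.9% of somatic values had exactly 1 solution and 0% of decoys had any; for 500 to 1000, decoys had one in 5.13% and 2.05%, in axons and soma, so the somatic reads of Ptn and the axonal reads of Gfap, Vim and Ncan are less certain. Recovered ratios of at least 0.5 (log2) had the deposited sign in 100% of genes. The recovery and the difference test were tested on simulated data. Ratios used a pseudocount of 0.5.

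Symbols came from the tables (18310 genes) and through Entrez from RefSeq (1837). Members and lists were chosen with earlier results of these data known. Named were the 8 genes, called genes of each pathway list (otherwise the 2 of highest axonal mean), the 5 profiles nearest Mdk and set markers; Prss23, Chrm4 and further examples were named after their values were seen. Python 3.11.15, NumPy 2.4.6, pandas 2.3.3, SciPy 1.17.1, Numba 0.67.0 and matplotlib 3.10.9 were used. Intervals of read ratios cover counting error only; those of fold changes are normal 95% intervals from the deposited SE.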

Additional observations from a re-analysis of the deposited data

How the results depend on the processing

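The count of axonal calls among the 7 genes other than Mdk was 1 (Ptn) with the authors' adjusted p. It was 0 when p-values were adjusted over every gene with reads, 0 over genes whose mean reached 10, and 0 after recentring on genes whose somatic mean reached 100; the adjustment over more genes lowers the number of calls by construction, and otherwise the cause was not tested. The counts of somatic calls and of differences between compartments were 0 in each setting tried. Leaving out 1 axonal library at a time, the log2 ratio of sides kept its sign for 5 of 8 genes. These 5, Mdk among them, are the genes whose sides did not overlap. For such genes the sign cannot change when 1 library is left out, so the count adds nothing to the lack of overlap. The log2 ratio ranged from 4.27 to 6.16 for Mdk, 1.30 to 1.95 for Ptn, 1.00 to 1.52 for Sdc4, 0.65 to 1.24 for Sdc1 and 0.24 to 1.58 for Sdc2. It spanned 0 for Ptprz1 (-0.07 to 0.93), Sdc3 (-0.51 to 0.62) and Alk (-1.45 to 0.08). In soma it kept its sign for 1 of 7 genes, Alk (0.24 to 1.89). No paired analysis was possible because the recovered libraries cannot be matched to the titles that carry the replicate numbers; pairs named in the text are of similar depth. Using deposited means in place of CPM lowered the median ratio of axonal to somatic level over genes from 0.887 to 0.300. The log2 ratio fell along with it, from 0.65 to -0.93 for Sdc4 and from 0.99 to -0.58 for Sdc1. It fell to -3.36 for Ptn, -2.71 for Sdc3, -2.03 for Mdk, -1.68 for Sdc2 and 1.13 for Alk. Depth limits Mdk, Sdc1 and Alk most, which had 92, 47 and 62 axonal reads in all.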
